A study of Homo sapiens with 17 samples.

Results

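The genes described here encode proteins of the extracellular matrix and the cell-surface receptors that bind them. They are the 76 genes, of 16884 in the deposited table, that the table's pathway annotation places in ECM-receptor interaction and whose table coordinates span under 400000 bases. The class was read from the gene names: 17 collagens, 11 laminins, 19 integrins, 17 other matrix proteins and 12 other receptors or surface proteins. Another 5 genes of the pathway were left out by span. LAMA2, RELN and FRAS1 span 633, 518 and 489 kb, and GP6 and TNXB carry coordinates on alternate scaffolds that do not give a true span.

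Poly-A RNA was sequenced from BEAS-2B cells, an established line derived from normal human bronchial epithelium, of wild-type genotype and kept in bronchial epithelial growth medium (BEGM). The cells were exposed for 24 h to acetaldehyde, a reactive aldehyde formed from ethanol and found in tobacco smoke. There were 5 libraries at 16 mM, 6 at 10 mM and 6 controls at 0 mM. All came from 1 cell line, and the labels do not say which libraries are separate cultures, so p-values measure the spread between these libraries, which may be technical.

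Estimated counts totalled 15952673 to 18809242 per library. Acetaldehyde 10 mM library 1 stood apart, with a median of 2.62 FPKM over all genes, against at least 6.71 FPKM in each other library. Its log2 levels correlated with those of the other 10 mM libraries at 0.831 to 0.859, while all other pairs within a group lay at 0.9815 or above. The other libraries fell into 2 sets that the labels do not name. The first set held 16 mM libraries 1 to 3, 10 mM libraries 2 to 4 and controls 1 to 3, and the second held 16 mM libraries 4 and 5, 10 mM libraries 5 and 6 and controls 4 to 6. The main counts of calls below are therefore also given without 10 mM library 1, and values within each set are given for members that turn on them. Of 11 epithelial markers in the table, 5 averaged at least 1 FPKM, while KRT5, KRT19, EPCAM and CDH1 averaged under 0.1 FPKM. The 5 were KRT7, KRT8, KRT18, KRT17 and ITGB4, at 559, 306, 377, 48.4 and 70.9 FPKM in controls. KRT17 was higher at 16 mM (log2 change 1.90, edgeR adjusted p = 0.00419) and ITGB4 was lower (-1.98, edgeR adjusted p = 3.25e-06). KRT7, KRT8 and KRT18 were not called, with log2 changes of -0.36, 0.23 and -0.41. Of 11 listed fibroblast or mesenchymal markers, 7 averaged at least 1 FPKM, but COL1A2 and COL3A1 lay under 0.1 FPKM. The summed epithelial markers ranged from 1221 to 1329 FPKM at 16 mM and from 952 to 1745 FPKM in controls, and the summed fibroblast or mesenchymal markers from 525.66 to 661 FPKM at 16 mM and from 621 to 1010 FPKM in controls. In that second list CDH2, N-cadherin, was lower at 16 mM (log2 change -1.33; edgeR adjusted p = 1.82e-08), and the part of such markers in the results below was not tested.

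A basement membrane is a thin sheet of matrix under epithelial cells. Its main parts are a network of collagen IV, in which each unit is wound from 3 α chains, and laminins, each built of 1 α, 1 β and 1 γ chain. Cells hold to the matrix through integrins, surface receptors made of 1 α and 1 β chain, of which the β1 chain pairs with many α chains and the β4 chain with α6 to anchor the hemidesmosome. Fibronectin, perlecan and agrin are further matrix proteins, and syndecans, CD44 and dystroglycan are non-integrin receptors.

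The 6 collagen IV genes lie in the genome as 3 head-to-head pairs, in which both genes start close together and are read in opposite directions. In the RefSeq promoter table (build GRCh38.p14; 250 bases before to 50 after a transcript start) the starts are 127 bases apart for COL4A1 and COL4A2 on chromosome 13, 419 apart for COL4A3 and COL4A4 on chromosome 2, and 380 apart for COL4A5 and COL4A6 on chromosome X. COL4A6 has 2 windows there, of which the first listed was used, and each other gene of the pairs has 1. The 3 windows below are shown because the members of each pair are compared in the results. Each is read 5′ to 3′ on the strand of the named gene, at chr13:110307108-110307407 (minus strand), chr2:227164374-227164673 (plus strand) and chrX:108439588-108439887 (plus strand), and the capitals mark bases that are also in the partner's window.
COL4A1: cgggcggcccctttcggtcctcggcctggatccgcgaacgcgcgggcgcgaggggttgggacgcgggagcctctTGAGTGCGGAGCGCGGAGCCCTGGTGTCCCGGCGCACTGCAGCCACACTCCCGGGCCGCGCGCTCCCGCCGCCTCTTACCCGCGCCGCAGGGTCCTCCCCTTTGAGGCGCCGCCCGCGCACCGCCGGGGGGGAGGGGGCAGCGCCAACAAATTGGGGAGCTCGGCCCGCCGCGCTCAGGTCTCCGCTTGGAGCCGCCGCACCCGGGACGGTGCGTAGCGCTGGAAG
COL4A3: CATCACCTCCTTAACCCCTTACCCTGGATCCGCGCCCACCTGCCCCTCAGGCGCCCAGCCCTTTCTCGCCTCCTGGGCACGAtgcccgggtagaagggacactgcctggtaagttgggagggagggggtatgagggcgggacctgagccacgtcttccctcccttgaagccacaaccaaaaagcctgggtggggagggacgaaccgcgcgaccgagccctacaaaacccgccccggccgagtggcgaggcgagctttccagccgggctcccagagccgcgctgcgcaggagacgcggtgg
COL4A5: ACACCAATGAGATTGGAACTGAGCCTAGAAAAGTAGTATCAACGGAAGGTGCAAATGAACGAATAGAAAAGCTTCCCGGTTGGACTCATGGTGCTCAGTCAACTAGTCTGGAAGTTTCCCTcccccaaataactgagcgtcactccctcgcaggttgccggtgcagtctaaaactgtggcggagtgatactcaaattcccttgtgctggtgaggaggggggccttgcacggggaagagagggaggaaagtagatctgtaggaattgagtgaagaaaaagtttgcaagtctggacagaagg
The shared stretch is 226 bases for COL4A1 with COL4A2, 82 for COL4A3 with COL4A4 and 121 for COL4A5 with COL4A6. In COL4A1 the shared letters run across the start, whereas in COL4A3 and COL4A5 they are the part of the window farthest from it.

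More members were lower than higher at 16 mM, in 4 of the 5 classes. The 76 genes took 0.538% to 0.58% of all counts at 16 mM, against 0.958% to 1.29% in controls. Of the 52 members with enough counts to be tested, 27 were lower and 5 higher at 16 mM than in controls (edgeR quasi-likelihood test, Benjamini-Hochberg adjusted p under 0.05 over 12564 genes). Among all tested genes 18.1% were lower and 17.3% higher, and the median log2 change was -0.70 over the tested members and 0.00 over all genes. Without 10 mM library 1, 32 members were lower and 6 higher, against 32.2% and 33.7% of all genes. With the close sets also taken as a term of the fit, 34 were lower and 8 higher, against 36.5% and 37.5% of all genes, so the members' excess over the background lay on the lower side in each fit. All 32 members called at 16 mM had the same direction within each set of libraries. The sets are parts of the libraries that gave the calls, so this is a description and no separate test. Of the 20 tested members not called, 11 had opposite signs in the 2 sets. When the libraries of a close set were summed to 1 sample per dose, 57 members were tested and edgeR called no member and no gene. At an unadjusted edgeR p under 0.05 there were 16 members lower and 2 higher, against 1288 of 13525 genes either way. Without 10 mM library 1 the summed fit called 26 of 57 members lower and 4 higher, against 1887 and 1593 of 13465 genes. In bulk RNA a lower level per cell and fewer cells that express a gene cannot be told apart. The 24 untested members had a group mean of at most 0.483 FPKM, and they are named with their classes below.

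**Figure D1:**
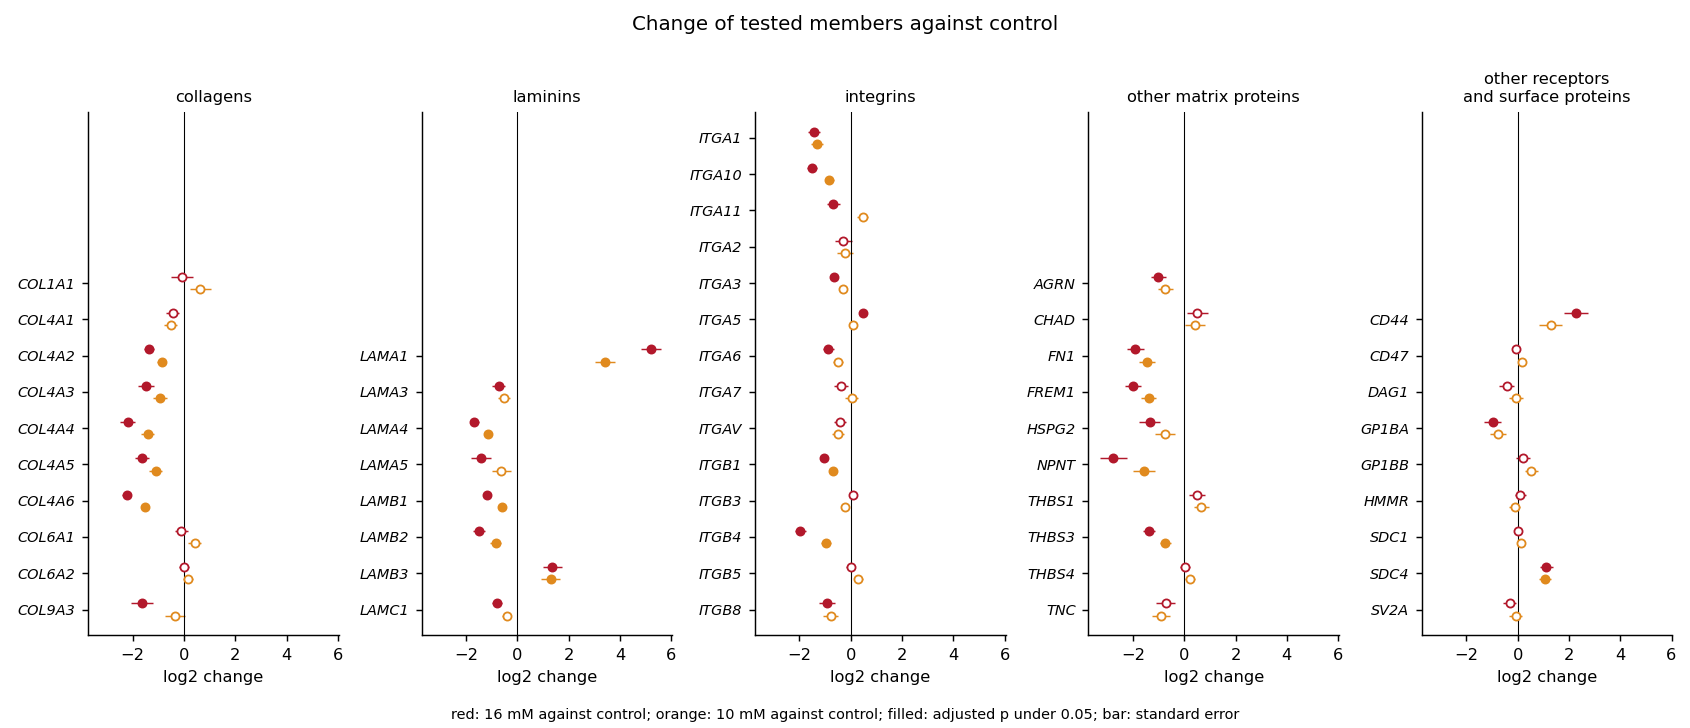
Log2 change against control (x axis) of 51 of the 52 tested members (y axis), in 5 panels by class, at 16 mM (red) and 10 mM (orange), with standard errors. Filled points passed an adjusted p under 0.05; most collagen IV, laminin and integrin points lie left of 0, and LAMA1, LAMB3, CD44 and SDC4 lie to the right.

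Collagens. At 16 mM 6 of 10 tested collagen genes were lower than in controls and none was higher, with a median log2 change of -1.43. Of all genes 18.1% were lower and 17.3% higher. The lower collagen genes were COL4A2, COL4A3, COL4A4, COL4A5, COL4A6 and COL9A3. COL1A1, COL4A1, COL6A1 and COL6A2 did not pass the test. Without 10 mM library 1 COL4A1 passed as well (7 lower, 0 higher), against 32.2% and 33.7% of all genes. The other 7 collagens (COL1A2, COL2A1, COL6A3, COL6A5, COL6A6, COL9A1 and COL9A2) averaged at most 0.014 FPKM in any group and were not tested.

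COL4A2, which encodes the α2 chain of the collagen IV found in almost all basement membranes, measured 11.8, 10.6, 10.3, 8.49 and 9.04 FPKM in the 5 libraries at 16 mM. In the 6 controls its lowest, median and highest values were 21.2, 26.3 and 29.7 FPKM, so the groups did not overlap. The log2 change was -1.37 ± 0.20 (SE), with an adjusted p of 5.58e-05 in edgeR. Its head-to-head partner COL4A1, the α1 chain of the same network, measured 7.07, 7.26, 6.96, 6.8 and 7.06 FPKM at 16 mM, against a lowest of 7.93, a median of 9.73 and a highest of 11.2 FPKM in controls. Every 16 mM value of COL4A1 lay under every control value, but its log2 change was smaller, at -0.45 ± 0.27 (edgeR adjusted p = 0.213; -0.44 and 0.000145 without 10 mM library 1). The log2 ratio of COL4A1 over COL4A2 in FPKM was -0.51 ± 0.17 at 16 mM (SD, n = 5) and -1.44 ± 0.03 in controls (SD, n = 6), ranging from -0.74 to -0.32 and from -1.48 to -1.40. No test was run on this ratio.

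COL4A3 and COL4A4, whose chains join with α5 in the collagen IV of specialised basement membranes such as those of the glomerulus and alveolus, were both present. COL4A4 measured 6.28, 6.37, 6.87, 4.43 and 4.49 FPKM at 16 mM, against a lowest of 20.7, a median of 25.0 and a highest of 30.2 FPKM in controls. COL4A3 averaged 3.10 ± 0.80 FPKM at 16 mM and 8.54 ± 0.72 FPKM in controls (SD, n = 5 and n = 6). Neither gene overlapped between these groups, and the log2 changes were -2.20 ± 0.28 for COL4A4 and -1.48 ± 0.30 for COL4A3 (edgeR adjusted p = 1.29e-05 and 0.00111). The log2 ratio of COL4A3 over COL4A4 was -0.89 ± 0.15 at 16 mM and -1.55 ± 0.15 in controls, ranging from -1.04 to -0.73 and from -1.73 to -1.36.

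COL4A6 had the most negative collagen estimate. It measured 1.22, 1.03, 1.13, 1.72 and 1.72 FPKM at 16 mM, against a lowest of 5.62, a median of 6.02 and a highest of 7.99 FPKM in controls. Its log2 change was -2.23 ± 0.18 (edgeR adjusted p = 1.97e-07), leaving 21.3% of the control level. COL4A5, its partner, averaged 3.95 ± 0.13 FPKM at 16 mM and 12.2 ± 2.46 FPKM in controls, a log2 change of -1.62 ± 0.28 (edgeR adjusted p = 0.000234). The log2 ratio of COL4A5 over COL4A6 was 1.57 ± 0.33 at 16 mM and 0.91 ± 0.20 in controls. The ranges of this ratio overlapped between 16 mM and control libraries. In all 3 pairs both genes had a negative estimate, and the differences between partners were not tested.

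COL9A3, a chain of the fibril-associated collagen IX, averaged 0.914 ± 0.502 FPKM at 16 mM and 2.77 ± 0.66 FPKM in controls (log2 change -1.64 ± 0.44; edgeR adjusted p = 0.00814). The fibrillar collagen gene COL1A1 measured 4.65, 4.69, 4.04, 1.99 and 2.04 FPKM at 16 mM, against a lowest of 2.52, a median of 3.63 and a highest of 4.84 FPKM in controls. The pooled log2 change was -0.08 ± 0.42 (edgeR adjusted p = 0.911), but it was 0.75 within the first set of libraries and -1.13 within the second, so the pooled value describes neither set. COL1A2, whose chain joins with that of COL1A1 in common type I collagen, had 3, 1 and 0 counts in total over the control, 10 mM and 16 mM libraries. COL6A1 and COL6A2, chains of the beaded-filament collagen VI, gave log2 changes of -0.10 and -0.01 (edgeR adjusted p = 0.817 and 0.975), also with opposite signs in the 2 sets (0.16 and -0.43 for COL6A1).

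**Figure D2:**
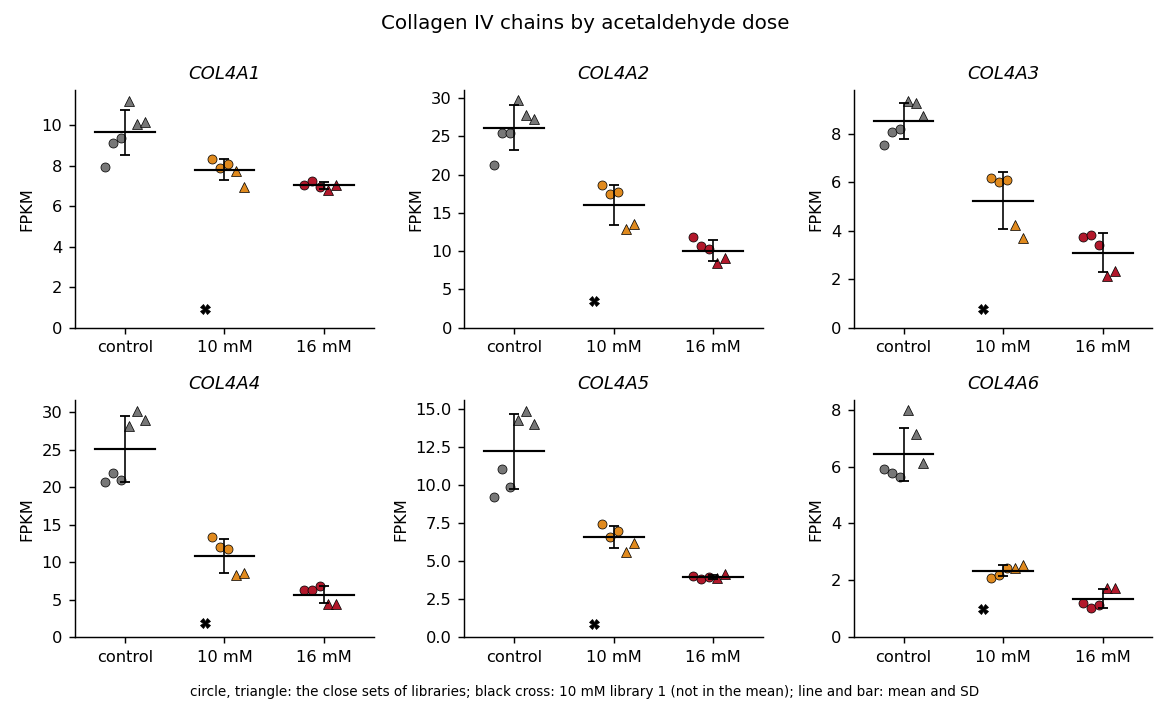
FPKM (y axis) of the 6 collagen IV genes in every library by acetaldehyde dose (x axis: control, 10 mM, 16 mM), with mean and SD; circles and triangles are the first and second set, the cross is 10 mM library 1, left out of the mean. The means of COL4A2 to COL4A6 fall at each dose, while COL4A1 stays between 6.8 and 8.33 FPKM in the other exposed libraries. With all libraries only COL4A6 of these was called between the doses.

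Laminins. At 16 mM 6 of 9 tested laminin genes were lower and 2 higher, with a median log2 change of -0.80. The count was the same without 10 mM library 1. Of all genes 18.1% were lower and 17.3% higher with all libraries, and 32.2% and 33.7% without that library. LAMB4 and LAMC3 averaged at most 0.025 FPKM and were not tested. The summed level of the class was 125 ± 8.47 FPKM at 16 mM and 247 ± 13.1 FPKM in controls (SD, n = 5 and n = 6).

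The chains of the broadly made laminins fell. LAMB1, the β1 chain, had the smallest adjusted p of any member (4.41e-08 in edgeR). It measured 39.3, 35.6, 37.1, 31.2 and 32.5 FPKM at 16 mM, against a lowest of 76.8, a median of 80.7 and a highest of 84.7 FPKM in controls, a log2 change of -1.19 ± 0.08. LAMC1, the γ1 chain with which most laminins are assembled, averaged 29.9 ± 2.02 FPKM at 16 mM and 52.3 ± 4.46 FPKM in controls (-0.80 ± 0.18; edgeR adjusted p = 0.00263). LAMB2, the β2 chain, averaged 17.0 ± 3.21 FPKM at 16 mM and 48.3 ± 5.65 FPKM in controls, and its groups did not overlap (-1.50 ± 0.23; edgeR adjusted p = 0.000103).

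LAMA5, the α5 chain of epithelial basement membranes, measured 19.0, 18.8, 18.6, 10.7 and 11.1 FPKM at 16 mM, against a lowest of 31.7, a median of 39.9 and a highest of 53.0 FPKM in controls. Its log2 change was -1.42 ± 0.40 (edgeR adjusted p = 0.0106), and it differed in size between the sets, at -0.77 in the first and -2.17 in the second. LAMA4, an α chain best known from vessels and muscle, fell by 1.68 ± 0.17 on the log2 scale in counts (edgeR adjusted p = 1.23e-06). Its FPKM averaged 1.78 ± 0.59 at 16 mM and 4.16 ± 0.73 in controls. The transcript length that the deposited counts and FPKM of LAMA4 imply was 2699 to 4230 bases at 16 mM and 3549 to 5555 in controls, against 5302 to 5336 and 5310 to 5332 for LAMB1. The FPKM of LAMA4 therefore rest on a length that moved between libraries. Its counts are not corrected for length, so they can carry that shift too, and its part in the change was not tested.

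LAMB3 and LAMA3 encode the β3 and α3 chains found in a laminin that hemidesmosomes bind, and they moved in opposite directions. LAMB3 rose: it measured 10.4, 11.9, 10.1, 22.9 and 22.9 FPKM at 16 mM, against a lowest of 4.92, a median of 6.32 and a highest of 7.03 FPKM in controls. Its log2 change was 1.37 ± 0.37 (edgeR adjusted p = 0.00872), at 0.91 within the first set and 1.83 within the second. LAMA3 fell, averaging 8.42 ± 2.20 FPKM at 16 mM and 14.1 ± 1.15 FPKM in controls (-0.72 ± 0.25; edgeR adjusted p = 0.0349).

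LAMA1, an α chain made mostly in the embryo, had the most positive estimate of all tested members, and a very low level in controls. It had 109 to 242 counts per library at 16 mM, against 2 to 8 in controls, which is 0.73 to 1.54 FPKM against 0.01 to 0.05 FPKM. The log2 change was 5.20 ± 0.39 (edgeR adjusted p = 7.72e-08). Even so its mean at 16 mM was 1.04 FPKM, against 35.1 FPKM for LAMB1 at the same dose.

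**Figure D3:**
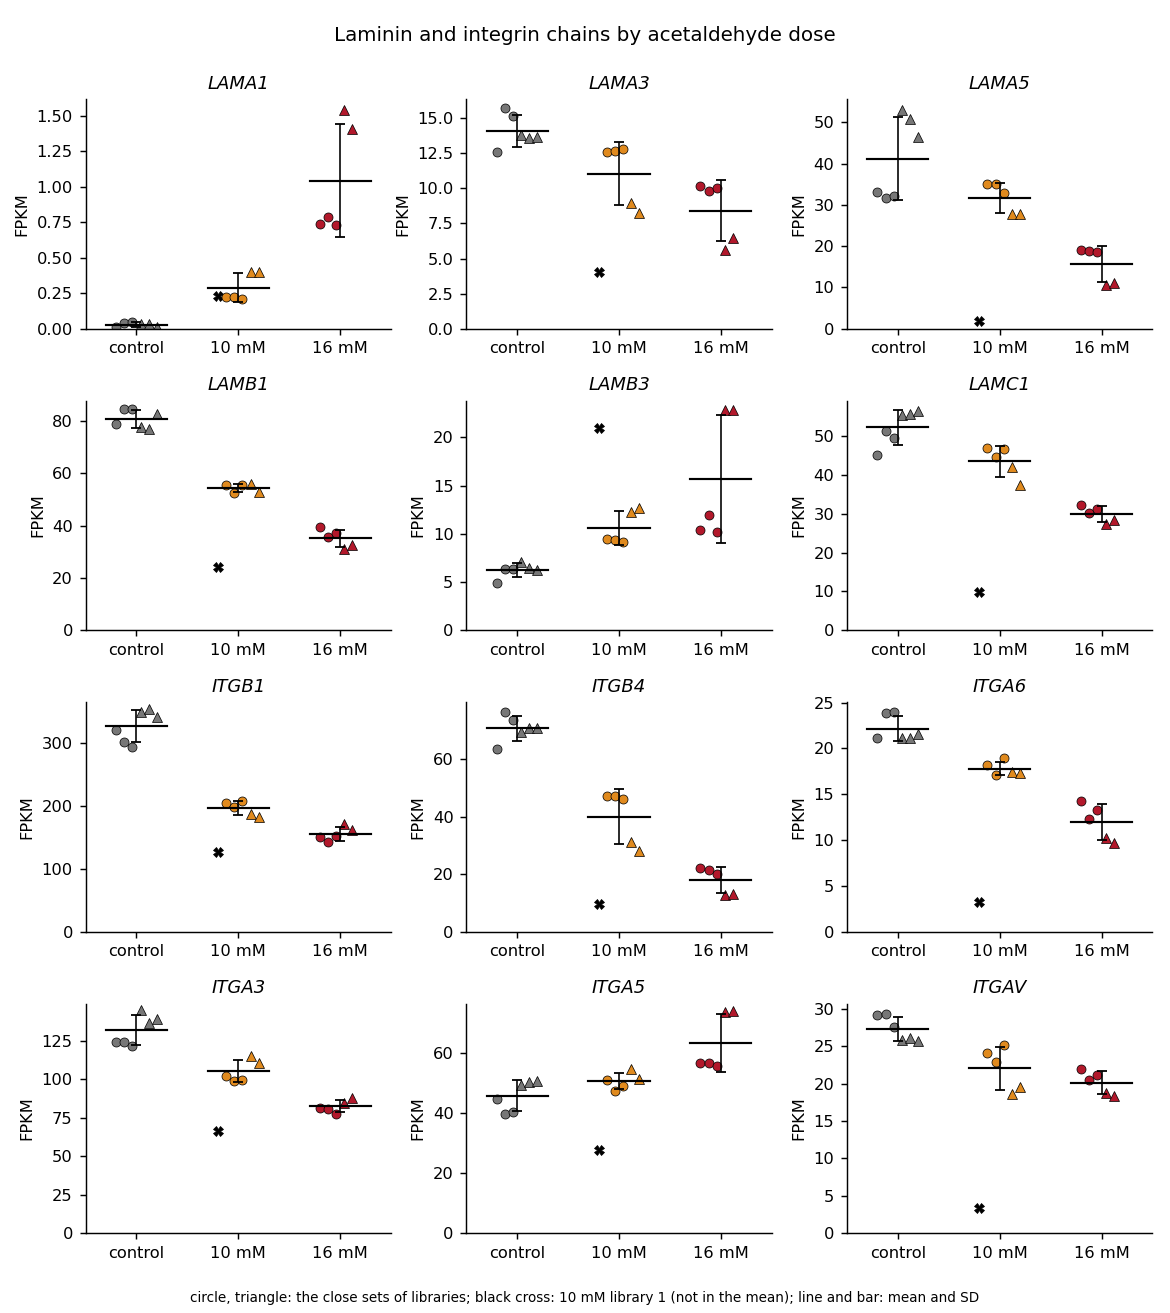
FPKM (y axis) of 6 laminin and 6 integrin genes in every library by acetaldehyde dose (x axis: control, 10 mM, 16 mM), with mean and SD; symbols are as in the plot of collagen IV. The means of LAMB1, ITGB1 and ITGB4 fall at each dose, without overlap between 16 mM and control, while LAMA1, LAMB3 and ITGA5 lie higher at 16 mM. With all libraries ITGB1 was not called between the doses.

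Integrins. At 16 mM 8 of 14 tested integrin genes were lower and 1 was higher, with a median log2 change of -0.67. Of all genes 18.1% were lower and 17.3% higher. Without 10 mM library 1 the integrin counts were 10 and 1, against 32.2% and 33.7% of all genes. The untested integrins ITGA2B, ITGA8, ITGA9, ITGB6 and ITGB7 averaged at most 0.144 FPKM. The 7 β chains summed to 224 ± 5.41 FPKM at 16 mM and 452 ± 27.8 FPKM in controls, and the 12 α chains to 192 ± 6.60 FPKM at 16 mM and 252 ± 9.68 FPKM in controls (SD, n = 5 and n = 6).

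ITGB1, the β1 chain shared by receptors for collagen, laminin and fibronectin, had the highest level of the class. It measured 152, 143, 153, 171 and 162 FPKM at 16 mM, against a lowest of 295, a median of 332 and a highest of 354 FPKM in controls. The log2 change was -1.06 ± 0.12 (edgeR adjusted p = 6.73e-06), leaving 48.1% of the control level. ITGB4, the hemidesmosome chain, measured 22.2, 21.6, 20.2, 12.8 and 13.2 FPKM at 16 mM, against a lowest of 63.5, a median of 71.1 and a highest of 76.5 FPKM in controls. It fell by 1.98 ± 0.22 on the log2 scale (edgeR adjusted p = 3.25e-06), the most negative estimate of the class. ITGB8, a chain that with αV binds latent TGF-β, averaged 3.49 ± 0.74 FPKM at 16 mM and 6.61 ± 0.91 FPKM in controls (-0.91 ± 0.31; edgeR adjusted p = 0.0294); it was named after its value was seen. ITGB3 and ITGB5, the β3 and β5 partners of αV, had log2 changes of 0.08 ± 0.12 and 0.01 ± 0.18 (edgeR adjusted p = 0.668 and 0.986), with opposite signs in the 2 sets.

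Among the laminin-binding α chains, ITGA6 and ITGA3 were lower and ITGA7 was not called. ITGA6, the α6 chain, averaged 11.9 ± 1.98 FPKM at 16 mM and 22.1 ± 1.39 FPKM in controls (-0.88 ± 0.21; edgeR adjusted p = 0.00347). ITGA3, the α3 chain, measured 81.5, 80.9, 77.3, 84.8 and 87.8 FPKM at 16 mM, against a lowest of 122, a median of 131 and a highest of 145 FPKM in controls (-0.66 ± 0.12; edgeR adjusted p = 0.000338). The collagen-binding chains differed. ITGA1 averaged 3.98 ± 0.87 FPKM at 16 mM and 10.8 ± 1.54 FPKM in controls (-1.42 ± 0.24; edgeR adjusted p = 0.000218), and ITGA10 averaged 0.406 ± 0.073 FPKM at 16 mM and 1.01 ± 0.20 FPKM in controls (-1.53 ± 0.20; edgeR adjusted p = 1.85e-05). ITGA11 was called lower from 9 to 16 counts per library at 16 mM and 12 to 24 in controls. ITGA2 gave -0.29 ± 0.32 and was not called (edgeR adjusted p = 0.529; 0.0368 without 10 mM library 1).

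The fibronectin receptor chain ITGA5 was the integrin gene that rose. It measured 56.5, 56.7, 55.6, 73.5 and 73.9 FPKM at 16 mM, against a lowest of 39.5, a median of 46.9 and a highest of 50.6 FPKM in controls. The log2 change was 0.48 ± 0.14 (edgeR adjusted p = 0.0136), at 0.46 and 0.58 within the sets. ITGAV, the αV chain, averaged 20.1 ± 1.58 FPKM at 16 mM and 27.3 ± 1.66 FPKM in controls, and no 16 mM value reached the lowest control. Its log2 change of -0.43 ± 0.23 missed the threshold with all libraries (edgeR adjusted p = 0.168) and passed without 10 mM library 1 (1.21e-05). ITGA7, the other tested α chain, gave -0.39 ± 0.27 (edgeR adjusted p = 0.289; -0.46 and 0.00413 with the close sets as a term and 10 mM library 1 left out).

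Other matrix proteins. At 16 mM 6 of 10 tested genes were lower and none higher (AGRN, FN1, FREM1, HSPG2, NPNT and THBS3), and CHAD, THBS1, THBS4 and TNC did not pass. Of all genes 18.1% were lower and 17.3% higher. Without 10 mM library 1 CHAD was called higher at 0.52, where 33.7% of all genes were higher. The untested genes were COMP, DMP1, DSPP, THBS2, TNN, VTN and VWF. FN1, fibronectin, had the highest level of all members in controls. It measured 97.8, 100.5, 99.9, 186 and 181 FPKM at 16 mM, against a lowest of 372, a median of 496 and a highest of 653 FPKM in controls. Its log2 change was -1.90 ± 0.33 (edgeR adjusted p = 0.000311), and it was -1.99 and -1.70 within the sets. Without FN1 the other 75 members still summed to 1044 ± 8.45 FPKM at 16 mM and 1489 ± 105 FPKM in controls.

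HSPG2, which encodes the heparan sulfate proteoglycan perlecan, averaged 5.6 ± 0.685 FPKM at 16 mM and 14.2 ± 3.33 FPKM in controls (-1.34 ± 0.41; edgeR adjusted p = 0.0171). AGRN, agrin, a basement membrane proteoglycan that links laminin to dystroglycan, averaged 23.9 ± 2.59 FPKM at 16 mM and 48.1 ± 7.51 FPKM in controls (-1.01 ± 0.30; edgeR adjusted p = 0.0162). THBS3, a thrombospondin, averaged 1.42 ± 0.53 FPKM at 16 mM and 3.73 ± 0.40 FPKM in controls (-1.38 ± 0.23; edgeR adjusted p = 0.000236). NPNT, the integrin α8 ligand nephronectin, and FREM1, a basement membrane protein, were named after their values were seen: both were under 1 FPKM, with log2 changes of -2.77 ± 0.52 and -2.01 ± 0.31 (edgeR adjusted p = 0.000579 and 0.000101). NPNT rested on 1 to 4 counts per library at 16 mM and 10 to 28 in controls. THBS1, thrombospondin 1, measured 42.0, 47.3, 44.6, 47.5 and 44.7 FPKM at 16 mM, against a lowest of 15.8, a median of 31.8 and a highest of 51.5 FPKM in controls. The pooled log2 change of 0.51 ± 0.30 was not called (edgeR adjusted p = 0.211), and it was 1.27 within the first set and 0.09 within the second. TNC, tenascin C, averaged 0.98 ± 0.394 FPKM at 16 mM and 1.58 ± 0.55 FPKM in controls (-0.72 ± 0.37; edgeR adjusted p = 0.148). With the close sets as a term and 10 mM library 1 left out, TNC was called lower (-0.62; edgeR adjusted p = 0.000129) and THBS1 higher (0.75; 0.000746).

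Other receptors and surface proteins. Of 9 tested genes 2 were higher (CD44 and SDC4) and 1 was lower (GP1BA), with a median log2 change of 0.03, where 17.3% of all genes were higher and 18.1% lower. Without 10 mM library 1 DAG1 and SV2A were also called lower, making 3 lower and 2 higher, against 32.2% and 33.7% of all genes. CD36, GP5 and SV2B were not tested. The summed level was 353 ± 11.8 FPKM at 16 mM and 305 ± 22.6 FPKM in controls. CD44, the receptor for hyaluronan, measured 10.1, 12.3, 11.2, 29.1 and 27.6 FPKM at 16 mM, against a lowest of 1.85, a median of 4.12 and a highest of 5.47 FPKM in controls. Its log2 change was 2.28 ± 0.47 (edgeR adjusted p = 0.00118). The 2 sets differed in level at every dose and not in direction, with 2.3 in the first and 2.46 in the second. SDC4, the heparan sulfate proteoglycan syndecan 4 of focal adhesions, measured 91.7, 91.0, 91.7, 125 and 121 FPKM at 16 mM, against a lowest of 45.4, a median of 49.1 and a highest of 52.2 FPKM in controls (1.12 ± 0.26; edgeR adjusted p = 0.00266). SDC1, syndecan 1, averaged 33.4 ± 3.30 FPKM at 16 mM and 33.0 ± 5.06 FPKM in controls (0.03 ± 0.08; edgeR adjusted p = 0.807), with -0.04 and 0.09 within the sets.

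DAG1, dystroglycan, which binds laminin, perlecan and agrin, measured 63.6, 57.5, 58.5, 40.2 and 40.0 FPKM at 16 mM, against a lowest of 53.4, a median of 71.1 and a highest of 84.3 FPKM in controls. Its log2 change of -0.43 ± 0.29 was not called (edgeR adjusted p = 0.271), and it was 0.10 within the first set and -1.01 within the second. CD47, an integrin-associated protein, gave -0.06 ± 0.15 (edgeR adjusted p = 0.786), at 0.19 and -0.46 within the sets. GP1BA, a chain of a platelet receptor for von Willebrand factor, averaged 0.634 ± 0.210 FPKM at 16 mM and 1.25 ± 0.09 FPKM in controls (-0.98 ± 0.33; edgeR adjusted p = 0.0304). GP1BB, its partner chain, and SV2A, a synaptic vesicle protein, gave 0.22 ± 0.26 and -0.31 ± 0.26 (edgeR adjusted p = 0.564 and 0.387), and GP1BB was 0.48 and -0.21 within the sets. HMMR, a hyaluronan-binding protein of dividing cells, gave 0.10 ± 0.22 (edgeR adjusted p = 0.753; 0.16 and 0.0157 with the close sets as a term and 10 mM library 1 left out). Of 6 platelet markers in the table ITGA2B, GP5 and GP6 averaged under 0.1 FPKM.

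**Figure D4:**
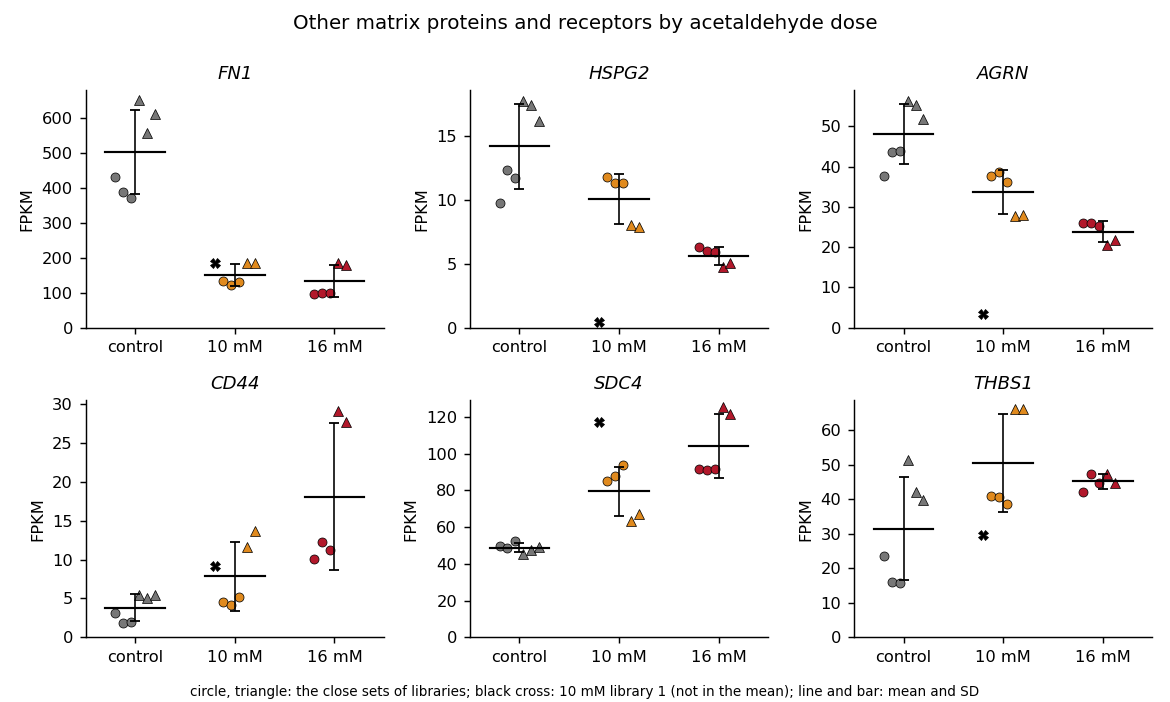
FPKM (y axis) of FN1, HSPG2, AGRN, CD44, SDC4 and THBS1 in every library by acetaldehyde dose (x axis: control, 10 mM, 16 mM), with mean and SD; symbols are as in the plot of collagen IV. All 16 mM values of CD44 and SDC4 lie above all controls, and those of FN1, HSPG2 and AGRN below, while THBS1 overlaps.

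The lower dose was read against the same controls, so both comparisons share them. At 10 mM 16 members were lower and 3 higher than in controls (edgeR, adjusted p under 0.05), where 9.3% of all tested genes were lower and 9.41% higher. Without 10 mM library 1 there were 27 lower and 9 higher, against 22.8% and 22.4% of all genes, and with the close sets as a term 28 lower and 14 higher, against 28.9% and 28.6%. The 3 that rose were LAMA1, LAMB3 and SDC4. By class the calls were 5 lower among collagens, 3 lower and 2 higher among laminins, 4 lower among integrins, 4 lower among other matrix proteins and 1 higher among other receptors. With 10 mM library 1 left out they were 6 lower and 3 higher among collagens, 5 lower and 2 higher among laminins, 8 lower among integrins, 7 lower and 1 higher among other matrix proteins, and 1 lower and 3 higher among other receptors. When close libraries were summed, edgeR called no member and no gene at 10 mM with all libraries. At an unadjusted edgeR p under 0.05 there were 8 members lower and 3 higher, against 738 of 13525 genes either way. Without 10 mM library 1 the summed fit called 4 of 57 members lower and 1 higher, against 191 and 55 of 13465 genes. All 19 called members had the same direction within each set, and 11 of the 33 not called had opposite signs. As at 16 mM, the sets are parts of the libraries that gave the calls.

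Fibronectin was already far lower at this dose. FN1 measured 186, 133, 124, 131, 186 and 186 FPKM in the 10 mM libraries, against a lowest of 372 FPKM in controls. Its log2 change was -1.46 ± 0.31 (edgeR adjusted p = 0.00367). ITGB1 measured 127, 206, 198, 208, 188 and 183 FPKM at 10 mM, against a lowest of 295 FPKM in controls (-0.70 ± 0.12; edgeR adjusted p = 0.000628). LAMB1 averaged 54.5 ± 1.59 FPKM in 10 mM libraries 2 to 6, with 24.0 FPKM in library 1, and 80.9 ± 3.56 FPKM in controls (-0.62 ± 0.08; edgeR adjusted p = 5.56e-05). COL4A6 averaged 2.34 ± 0.19 FPKM in 10 mM libraries 2 to 6, with 1.00 FPKM in library 1, and 6.43 ± 0.94 FPKM in controls (-1.51 ± 0.17; edgeR adjusted p = 1.59e-05). ITGB4 spread more, at 47.4, 47.4, 46.2, 31.3 and 28.1 FPKM in libraries 2 to 6 and 9.58 in library 1, yet all lay below the lowest control of 63.5 FPKM (-0.98 ± 0.20; edgeR adjusted p = 0.00266). LAMA1 had 33 to 64 counts per library at 10 mM and 2 to 8 in controls (3.43 ± 0.39; edgeR adjusted p = 1.90e-05). SDC4 averaged 79.4 ± 13.4 FPKM in 10 mM libraries 2 to 6, with 117 FPKM in library 1, and 48.9 ± 2.24 FPKM in controls (1.07 ± 0.25 with all libraries; edgeR adjusted p = 0.0065). The log2 changes without library 1, which match these means, were 0.70 for SDC4, -0.57 for LAMB1 and -1.46 for COL4A6, all called.

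Collagens I and VI took another course at 10 mM. COL1A1 measured 7.32, 7.75, 7.74, 5.57 and 5.32 FPKM in 10 mM libraries 2 to 6, against a highest control of 4.84 FPKM, but 0.38 FPKM in library 1. COL6A1 measured 43.2, 46.1, 44.5, 31.2 and 29.2 FPKM in libraries 2 to 6, against a highest control of 26.8 FPKM, and 4.84 FPKM in library 1. With all libraries neither was called (edgeR adjusted p = 0.266 and 0.256). Without 10 mM library 1 COL1A1, COL6A1 and COL6A2 were higher at 10 mM, by 0.88, 0.62 and 0.33 on the log2 scale (edgeR adjusted p = 0.00552, 0.000346 and 0.0204). They were then lower at 16 mM than at 10 mM, with log2 differences of -0.94, -0.71 and -0.33. These calls therefore rest on leaving out that library, and COL6A2 was 0.56 and -0.02 within the sets at 10 mM.

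Between the doses, 7 members were lower and 1 higher at 16 mM than at 10 mM (edgeR), where 7.46% of all tested genes were lower and 6.69% higher. Without 10 mM library 1 there were 29 lower and 4 higher, against 20.9% and 23.2% of all genes, and with the close sets as a term 35 lower and 7 higher, against 28.1% and 29.5%. When close libraries were summed, edgeR called no member and no gene with or without that library, so the count depends on how the libraries are treated. At an unadjusted edgeR p under 0.05 there were 1 and 21 of 57 members, against 457 of 13525 and 2606 of 13465 genes. The 7 were COL4A6, ITGA10, ITGA11, ITGA3, ITGB4, LAMA4 and LAMB1, and LAMA1 was the 1 that rose. LAMB1 differed by -0.57 ± 0.08 (edgeR adjusted p = 0.000657) and ITGB4 by -1.002 ± 0.21 (0.0059). FN1 did not pass, at -0.44 ± 0.32 (edgeR adjusted p = 0.346), and its estimate was -0.16 without 10 mM library 1, and -0.38 and 0.02 within the sets. With the close sets as a term it was called, at -0.22 (edgeR adjusted p = 0.0214).

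The fall was not shared by all genes that work with the matrix. Genes outside the pathway were read from lists chosen with earlier results of these data known. Of 28 tested matrix proteins outside the pathway, 19 were lower and 1 (ECM1) was higher at 16 mM than in controls, with a median log2 change of -1.20. FBN2, fibrillin 2 of microfibrils, averaged 7.04 ± 0.66 FPKM at 16 mM and 42.4 ± 5.70 FPKM in controls (-2.58 ± 0.17; edgeR adjusted p = 1.71e-08). COL8A1, a short-chain collagen, averaged 59.5 ± 6.56 FPKM at 16 mM and 198 ± 44.3 FPKM in controls (-1.74 ± 0.17; edgeR adjusted p = 8.05e-07), and COL5A3 fell by 3.13 on the log2 scale, at 0.048 FPKM at 16 mM and 0.433 FPKM in controls. Among 25 tested genes of the adhesion machinery inside the cell 6 were lower and 3 higher, with a median of -0.03. Of all genes 18.1% were lower and 17.3% higher. The smallest adjusted p-values of the adhesion machinery belonged to LIMS2, PTK2B and TLN2, with log2 changes of -1.98, -2.17 and -2.45. The related LIMS1, PTK2 and TLN1 gave 0.00, -0.35 and -0.37 and were not called. Those names were added after their values were seen.

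Of 25 tested genes that modify and secrete collagen 6 were lower and 3 higher (median -0.03), where 18.1% and 17.3% of all genes were. ADAMTS3, a procollagen peptidase, P3H2, a prolyl 3-hydroxylase active on collagen IV, and LOXL2, a crosslinking oxidase, fell by 2.20, 0.84 and 1.12 on the log2 scale (edgeR adjusted p = 4.98e-06, 1.14e-05 and 3.06e-05). The 3 higher ones were P4HA1, P4HA2 and COLGALT1, at 0.51, 0.49 and 0.46 (edgeR adjusted p = 5.96e-05, 0.00225 and 0.00412). They were named after their values were seen. Among matrix proteases and their inhibitors 6 were lower and 6 higher of 27 tested (median 0.07), with MMP2 at -1.07 and TIMP4 at -1.31 among the lower and ADAMTS4, at 0.118 ± 0.026 FPKM at 16 mM and 0.028 ± 0.012 FPKM in controls, among the higher. Of 13 tested collagen receptors and surface proteins outside the pathway 5 were lower and 1 was higher (median -0.50). These were led by GPC6, glypican 6, at -4.68, BCAM, a laminin α5 receptor, at -0.91, and MCAM, the higher one, at 0.38. The hemidesmosome list shares 5 of its 9 genes with the members, and its 3 lower and 1 higher of 8 tested were the members ITGB4, ITGA6, LAMA3 and LAMB3. The lower and higher counts without 10 mM library 1 were 20 and 1 for matrix proteins outside the pathway, 11 and 9 for adhesion machinery, 8 and 6 for collagen modification, 9 and 10 for proteases and inhibitors, 10 and 2 for other receptors, and 5 and 1 for the hemidesmosome, where 32.2% of all genes were lower and 33.7% higher.

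Many matrix genes are long, and long genes were more often lower at 16 mM. Among all tested genes spanning 200 to 400 kb, 44.9% were lower at 16 mM than in controls with a median log2 change of -0.49, against 12.9% and a median of 0.03 among those under 20 kb. In the ranges of 100 to 200, 50 to 100 and 20 to 50 kb, 22.5%, 15.3% and 13.9% were lower. In these 3 ranges 11.3%, 19.1% and 22.4% were higher, and the medians were -0.08, 0.05 and 0.10. Members were below these medians in each range: -1.62 for the 7 members of 200 to 400 kb (6 lower), -0.80 for 13 of 100 to 200 kb (8 lower, 1 higher), -0.43 for 11 of 50 to 100 kb (5 lower, 1 higher), -0.05 for 12 of 20 to 50 kb (4 lower, 3 higher) and -0.31 for 9 under 20 kb (4 lower). With 10 mM library 1 left out the members called lower were 6, 11, 6, 4 and 5 in the same order of ranges. Of all genes in those ranges 65.95%, 39.32%, 27.25%, 25.98% and 27.54% were then lower. Span moved with the change, and its part in the result was not tested. Members under 20 kb were lower or not called, where 18.15% of all genes of that range were higher. Members of 20 to 50 kb went both ways. LAMB2 with 11952 bases, ITGA10 with 18903 and ITGB4 with 36480 were among the lower ones. The 3 higher ones of 20 to 50 kb were SDC4 with 23136 bases, ITGA5 with 32491 and LAMB3 with 37597. COL1A1 with 17553 bases and COL6A1 with 23278 were not called. The longer members that rose were CD44 with 93234 bases and LAMA1 with 176055. FRAS1, the pathway gene of 489 kb left out by the span limit, fell by 4.25 on the log2 scale (edgeR adjusted p = 6.02e-09), at 0.03 FPKM at 16 mM and 0.518 FPKM in controls.

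**Figure D5:**
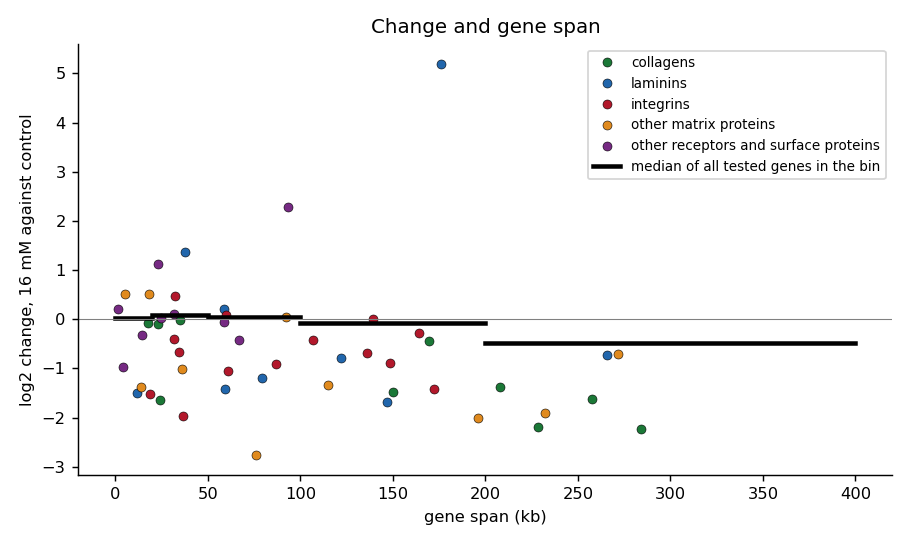
Log2 change at 16 mM against control (y axis) by gene span in kb (x axis) for the 52 tested members, coloured by class; black bars are the medians of all tested genes in 5 ranges of span. Members of 200 to 400 kb have a median of -1.62 and all genes of that range -0.49.

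Promoter windows were found for 59 of the 76 members, 82 windows in all, and were searched on both strands for 7 short motifs. The shares in members were near those over all 35116 windows for most: the CCAAT box (CCAAT) stood in 28.1% of member windows and 34.6% of all, the TATA box (TATAAA) in 12.2% and 11.5%, the AP-1 site (TGANTCA) in 6.1% and 7.71%, the core of the antioxidant element (TGACNNNGC) in 11.0% and 13.3%, and the GC box (GGGCGG) in 54.9% and 45.0%. The heat shock element core stood in none of the member windows and 0.49% of all. The motif TGACGTCA, known as the cyclic AMP response element or CRE, stood in 1.22% of member windows and 1.85% of all, and the single member with it was FN1. An FN1 window (chr2:215436019-215436318, minus strand, GRCh38.p14) and a LAMB3 window (chr1:209651325-209651624, minus strand) are shown. FN1 was the highest member that fell, and LAMB3 the laminin gene that rose from a measurable level. The LAMB3 window was chosen as the first listed for that gene with an AP-1 site, so the site was the rule of choice. Capitals mark the CRE in FN1 and the AP-1 site in LAMB3.
FN1: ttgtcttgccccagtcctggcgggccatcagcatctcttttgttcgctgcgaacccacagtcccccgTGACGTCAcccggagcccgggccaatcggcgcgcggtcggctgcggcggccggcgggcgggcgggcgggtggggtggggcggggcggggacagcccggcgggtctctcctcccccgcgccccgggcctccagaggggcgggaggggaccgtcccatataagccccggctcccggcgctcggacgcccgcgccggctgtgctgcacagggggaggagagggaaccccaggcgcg
LAMB3: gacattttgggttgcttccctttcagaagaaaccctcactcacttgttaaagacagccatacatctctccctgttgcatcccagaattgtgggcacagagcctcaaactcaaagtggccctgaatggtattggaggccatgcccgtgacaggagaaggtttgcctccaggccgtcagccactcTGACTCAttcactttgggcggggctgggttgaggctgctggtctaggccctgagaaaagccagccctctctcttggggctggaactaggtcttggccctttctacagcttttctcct
AP-1 sites were also found in windows of CD36, FREM1, ITGA5 and LAMA3, that is, in genes that rose, fell or were not tested. A match is a description of the letters and no measure of binding.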

How the data were processed

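Poly-A RNA of 17 BEAS-2B libraries was analysed from 1 deposited table. Per the submitters' processing notes, the tools were RSEM 1.3.1, HISAT, DESeq2 1.4.5 and Bowtie2 2.3.4.3 on build GRCh38.p13; their settings and the strand of counting are not given in the sources used here. The authors deposited estimated counts (13.1% not whole), FPKM and TPM per library, and log2 fold changes with p-values and q-values of their own comparisons.

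Estimated counts were rounded and fitted with edgeR 4.0.16 in R 4.3.3 (TMM scaling, default filter on low counts, quasi-likelihood test); the 3 groups shared 1 fit, which left 14 residual degrees of freedom. The Benjamini-Hochberg adjustment ran over 12564 tested genes, with a threshold of 0.05. The SE is the log2 change divided by the root of F. Levels are FPKM as deposited; changes within sets are ratios of mean scaled counts. The script was tested on simulated data. Members and lists were chosen with earlier results of these data known.

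Members were named if among the 6 smallest p-values of a class at 16 mM (3 in other comparisons) with at least 1 FPKM in a group, or if an anchor of the class; ITGB8, ITGA7, ITGA11, COL6A2, CHAD, NPNT, FREM1, THBS4, HMMR and FRAS1 were named after their values were seen. Values of 1 member are not reported here. Library totals differ little, so precision is limited by the number of libraries and, under about 20 counts, by counting. Alternatives were DESeq2 1.42.0, limma 3.58.1 on log2(FPKM + 1) and voom, other filters, blocks, close sets and each library left out. The authors' deposited table (q under 0.05) calls all 32 and all 19 of the members called here at 16 and 10 mM against control, and 7 of the 8 called between doses. In all it calls 6 members higher and 35 lower, 4 and 16, and 1 and 7 in these comparisons. It comes from the same libraries, so it is no separate evidence, and its shares over all genes were not counted.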

Additional observations from a re-analysis of the deposited data

Results flagged for a closer look

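In groups of 5 or 6 libraries, 24 of 128 sets of values over 43 named members held 1 library far from the rest by Dixon's test; chance gives about 1 in 20. Of these, 22 were 10 mM library 1. Its collagen values were 0.38 FPKM for COL1A1, 0.91 for COL4A1, 0.91 for COL4A5 and 1.00 for COL4A6. Among laminins it had 4.06 FPKM for LAMA4, 1.83 for LAMA5, 23.99 for LAMB1, 21.02 for LAMB3 and 9.77 for LAMC1. Among integrins it had 0.32 FPKM for ITGA2, 66.44 for ITGA3, 27.7 for ITGA5, 3.21 for ITGA6, 3.31 for ITGAV, 127.43 for ITGB1 and 1.56 for ITGB3. The other values were 3.35 FPKM for AGRN, 0.46 for HSPG2, 6.03 for CD47, 9.85 for DAG1, 18.05 for SDC1 and 7.42 for SV2A. LAMA4 and LAMB3 were above the other 10 mM libraries and the remaining 20 genes below them.

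The other 2 were control library 1 for COL6A1, at 21.09 FPKM against 25.35 to 26.76 FPKM in the other controls, and 10 mM library 4 for COL1A2, at 0.01 FPKM from 1 count where the others were listed at 0.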

How the results depend on the processing

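Members higher and lower were 5 and 27 at 16 mM against control, 3 and 16 at 10 mM against control, and 1 and 7 at 16 mM against 10 mM. Leaving out each library in turn gave 4 to 6 higher and 22 to 32 lower, 3 to 9 higher and 14 to 27 lower, and 1 to 4 higher and 4 to 29 lower; the highest counts came without 10 mM library 1, and between doses the lowest (4 lower) came without 16 mM library 4 or 5. With 10 mM library 1 also left out, the counts at 10 mM were 10 and 27 with a replicate block, 13 and 27 with the library numbers as a term, and 14 and 28 with the close sets as a term (added after the data were seen). Over all 12545 genes those counts were 2829 and 2824, 3301 and 3275, and 3593 and 3630. Between doses the members' counts were 7 and 30, 7 and 33, and 7 and 35, against 3006 and 2875, 3507 and 3393, and 3705 and 3524 genes. At 16 mM the close sets gave 8 higher, against 4710 genes. The replicate block with all libraries gave 6 and 22, 3 and 16, and 3 and 6, against 2001 and 2152, 807 and 1017, and 614 and 690 of 12564 genes. Same-numbered libraries did not all deviate together: correlations were -0.039 to 0.286 at 16 mM against control, -0.246 to 0.313 at 10 mM against control and -0.435 to 0.445 between doses, so the numbers were not taken as pairs. Close libraries summed gave 0 calls in all 3 comparisons by edgeR. At an unadjusted p under 0.05 there were 18, 11 and 1 of 57 members, against 1288, 738 and 457 of 13525 genes. Without 10 mM library 1 (also added later) the calls were 4 and 26, 1 and 4, and 0 and 0, against 1593 and 1887, 55 and 191, and 0 and 0 of 13465 genes. Unadjusted, 34, 24 and 21 members then passed, against 5585, 2658 and 2606 genes. Library-weighted voom gave 12 and 30 at 10 mM and 4 and 40 between doses, against 3624 and 3893, and 3805 and 3725, of 12564 genes. Between doses the DESeq2 Wald test gave 2 and 13, against 1163 and 1508 of 12564 genes. Limma on log2(FPKM + 1) tested 45 members and gave 0 and 0 (9 unadjusted), against 783 and 504 of 11535 genes. Fitting the compared groups alone gave 1 and 3 of 51 members, against 254 and 315 of 12331 genes. A 2-fold minimum left 8 lower at 10 mM and 2 lower between doses, against 334 and 275 of 12564 genes. The cause of these differences was not tested.

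Of 3054 log2 values of single members, 2659 were the same as in the main fit, 131 lost the call, 234 gained it, 7 moved and 23 changed sign. The same meant direction and call kept, except for ratios of mean FPKM, which have no call. Of those ratios 95 lay within the SD between libraries of the main value and counted as the same, and 7 lay beyond it and counted as moved. At 16 mM against control COL1A1 was 0.032 with the replicate block and -0.20 to 0.056 with a library left out, and CD47 was 0.053 with voom and -0.13 to 0.017 with a library left out. ITGB5 was -0.00329 with DESeq2 size factors, -0.00327 in the DESeq2 Wald test, -0.031 with limma on FPKM, -0.10 with voom and -0.045 to 0.055 with a library left out. At 10 mM CD47 was -0.00140 with limma on FPKM. Between doses AGRN was 0.025 with limma on FPKM and SDC4 was -0.16 with close libraries summed and -0.060 to 0.43 with a library left out. None of these was called with all libraries. Members under about 20 counts per library (NPNT, ITGA11, and LAMA1 in controls) are limited by depth.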
